A study of Mus musculus with 17 samples.

Results

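The regions described here carried a WT1 peak in glomeruli and podocytes of vehicle-treated mice, in injured glomeruli and in podocytes 9 days after injury, and had none in podocytes 14 days after injury. They were found by merging the peaks of all 5 deposited lists wherever peaks overlapped or touched, which gave 41766 regions. Of these, 5736 met the rule, or 13.7% of all merged regions. A further 4666 regions had a peak in all 5 lists, so that 55.1% of the 10402 regions present in the 4 other lists lacked a day 14 peak. That share was below the 79.2% found among all 31496 regions with a day 9 peak. Members were thus chosen by the measured presence or absence of a called peak in each list, and the strength of a peak bears on whether it is called. Fold enrichments and ranks in the same lists are therefore given as a description, with no test.

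WT1 is a transcription factor with zinc fingers on which podocytes depend from development into adult life, and mutations in its gene cause glomerular disease in humans. Podocytes are the postmitotic epithelial cells whose interlocking foot processes cover the glomerular capillaries and hold back protein from the urine. In chromatin immunoprecipitation followed by sequencing (ChIP-seq), DNA fragments bound by a factor pile up around its sites, and a caller reports each pile-up above background as a peak with a summit, the position of most fragments. Adriamycin (doxorubicin, ADR), a drug toxic to podocytes, is widely used in mice to cause podocyte injury and proteinuria.

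All mice were 7 to 8 weeks old and are labelled wildtype, and every immunoprecipitation used the WT1 antibody sc-192. Glomeruli isolated from BALB/cJ mice gave 4 libraries after phosphate-buffered saline (PBS) and 4 after ADR, with no day stated. Podocytes purified from mTmG-Nphs2cre mice, in which a recombinase driven by the podocin promoter marks these cells, gave 3 libraries after PBS, 2 at day 9 and 2 at day 14 after ADR, although the protocol speaks of 3 experiments for these mice. Isolated glomeruli also hold endothelial and mesangial cells, and strain and preparation differ together between glomeruli and podocytes. Peak lists hold no expression values, so the labelled cell types could not be checked against markers. In glomeruli and in purified podocytes alike, fewer podocytes and less WT1 on the chromatin of each podocyte cannot be told apart at this step of the assay.

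Each group was represented by 1 list, with 6694 peaks at day 14, 31949 at day 9, 23402 in podocytes after PBS, and 29082 and 16634 in glomeruli after PBS and ADR. No replicate could be compared with another, and no test between groups was possible. Intervals are 95% Wilson intervals for shares and exact binomial intervals for medians. They cover the counting of regions and not the variation between mice. The part of library depth in the short day 14 list was not tested, since read totals were not used here. Genes and DNA sequences at these positions were not analysed here, because the reference tables used are of another genome build than the mm9 peak coordinates.

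By fold enrichment, the regions without a day 14 peak were of middling strength in glomeruli and below the middle in podocytes. Fold enrichment is the caller's ratio of the fragment pile-up at the summit to the local background, and the strongest peak of a region in each list was used. The median of the 5736 regions was 8.53-fold in glomeruli after PBS (interval 8.37 to 8.64) and 7.34-fold after ADR (7.27 to 7.42). In podocytes it was 5.35-fold after PBS (5.27 to 5.42) and 6.20-fold at day 9 (6.08 to 6.31). Regions in all 5 lists had medians of 15.7, 11.1, 14.1 and 20.7-fold in the same order, and all peaks of each list had 7.46, 7.26, 6.30 and 6.82-fold. As percentiles within their own list, the median region without a day 14 peak stood at 58.8 and 51.2 in glomeruli after PBS and ADR, and at 37.0 and 43.8 in podocytes after PBS and at day 9. By this measure, the regions thus ranked higher within the glomerular lists than within the podocyte lists. By the −log10 of the caller's p-value, their median lay above that of all peaks in each of the 4 lists. It was 19.2 against 14.8 in glomeruli after PBS and 12.1 against 11.6 after ADR. In podocytes it was 21.8 against 19.4 after PBS and 27.7 against 20.4 at day 9.

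**Figure D1:**
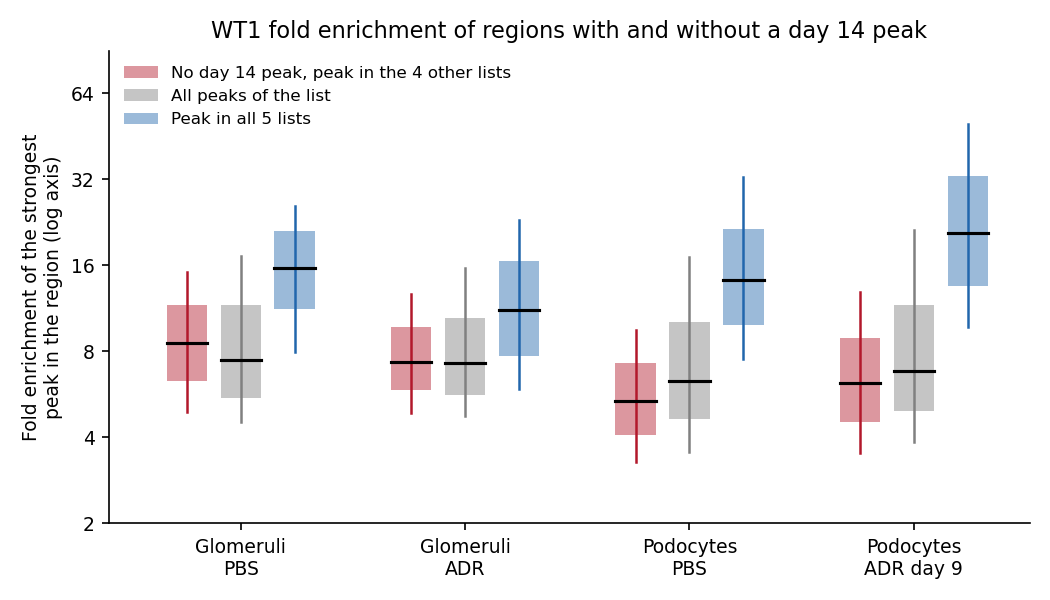
Fold enrichment (log axis) of the strongest peak per region in the 4 lists that all these regions share; boxes span the 25th to 75th percentile, lines the 10th to 90th, black bars are medians, and grey boxes are all peaks of the list. Regions without a day 14 peak have medians of 8.53, 7.34, 5.35 and 6.20-fold from left to right, and regions in all 5 lists 15.7, 11.1, 14.1 and 20.7-fold.

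The class spanned a wide range of strength. At day 9 the enrichment of its members ran from 1.95 to 45.5-fold, with 10% below 3.51 and 10% above 12.9-fold. It ran from 1.85 to 29.7-fold in PBS podocytes, and in glomeruli from 2.35 to 31.5-fold after PBS and from 2.95 to 34.6-fold after ADR. Of the 5736 regions, 931 (16.2%, 15.3 to 17.2) lay below the median of the list in all 4 lists and 790 (13.8%, 12.9 to 14.7) above it in all 4. Among regions in all 5 lists these counts were 5 and 3276 (70.2%). Few members exceeded the 90th percentile of a podocyte list, 37 (0.645%) after PBS and 96 (1.67%) at day 9, against 301 (5.25%) and 246 (4.29%) in glomeruli after PBS and ADR. There were 0 members above it in all 4 lists at once, against 438 (9.39%) of the regions in all 5 lists.

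The rank order of the members was shared more within podocytes than between preparations. Spearman's rho over the 5736 regions was 0.70 between PBS and day 9 podocytes, 0.37 between the glomerular lists, 0.38 between PBS glomeruli and day 9, 0.35 between PBS glomeruli and PBS podocytes, and 0.16 to 0.18 between ADR glomeruli and either podocyte list. Regions in all 5 lists had the same feature, with rho of 0.78 between PBS and day 9 podocytes and 0.32 between the glomerular lists. Against either podocyte list, theirs was 0.50 to 0.58 for PBS glomeruli and 0.13 to 0.17 for ADR glomeruli. These values describe regions that share a genome and a caller, and regions are not replicates.

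The strongest regions without a day 14 peak had closely matched summits, 10 to 51 bp apart over the 4 other lists in the 10 regions with the highest mean percentile. The highest mean percentile over the 4 lists belonged to chr4:114452298-114453113, with enrichments of 22.2-fold in glomeruli after PBS, 22.7 after ADR, 16.5 in podocytes after PBS and 25.7 at day 9. A second region on the same chromosome, chr4:114132932-114133616, had 26.7, 14.4, 18.8 and 26.4-fold in the same order. Their lowest percentiles in any of these lists were 89.3 and 87.8, and the nearest day 14 peaks were 41422 and 43551 bp away.

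On chromosome 19, chr19:55232997-55233807 had the highest day 9 value of the whole class, 45.5-fold, with 31.5-fold and 11.1-fold in glomeruli after PBS and ADR and 21.3 in PBS podocytes. Its ADR glomerular peak was the weakest of the 4 by rank, at percentile 77.9 against 93.7 to 99.7 in the other lists. The region chr9:63544337-63544933 had 27.4 and 14.5-fold in the glomerular lists and 16.1 and 23.5-fold in the podocyte lists, PBS first in each. On the X chromosome, chrX:96486488-96488661 held 7 peaks over 2174 bp, with 23.7, 14.3, 17.9 and 21.7-fold, and a day 14 peak lay only 1307 bp away. These 3 regions all had their highest value in PBS glomeruli or at day 9 and their lowest in ADR glomeruli. Regions in all 5 lists also had their highest median at day 9 (20.7-fold) and their lowest in ADR glomeruli (11.1-fold). Members as a whole had their lowest median in PBS podocytes (5.35-fold).

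The other 5 of the 10 strongest regions varied in the order of the lists. On chromosome 5, chr5:73246765-73247311 was strongest in ADR glomeruli, with 30.4-fold against 14.8 in PBS glomeruli, 16.3 in PBS podocytes and 20.4 at day 9. The region chr5:103803100-103803603 likewise had 28.7-fold in ADR glomeruli and 23.8 in PBS glomeruli, against 12.1 and 13.5 in PBS and day 9 podocytes. The region chr11:96792792-96793362 differed most between the podocyte lists, with 9.33-fold in PBS and 35.6-fold at day 9, beside 23.2 and 20.0-fold in PBS and ADR glomeruli. Values were nearly level across lists at chr1:39531193-39531761 (19.6, 17.0, 16.3 and 19.7-fold) while chr8:122541079-122541735 (16.9, 13.6, 17.1 and 24.5-fold) was again highest at day 9 and lowest in ADR glomeruli. The medians of regions in all 5 lists had the same highest and lowest list.

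**Figure D2:**
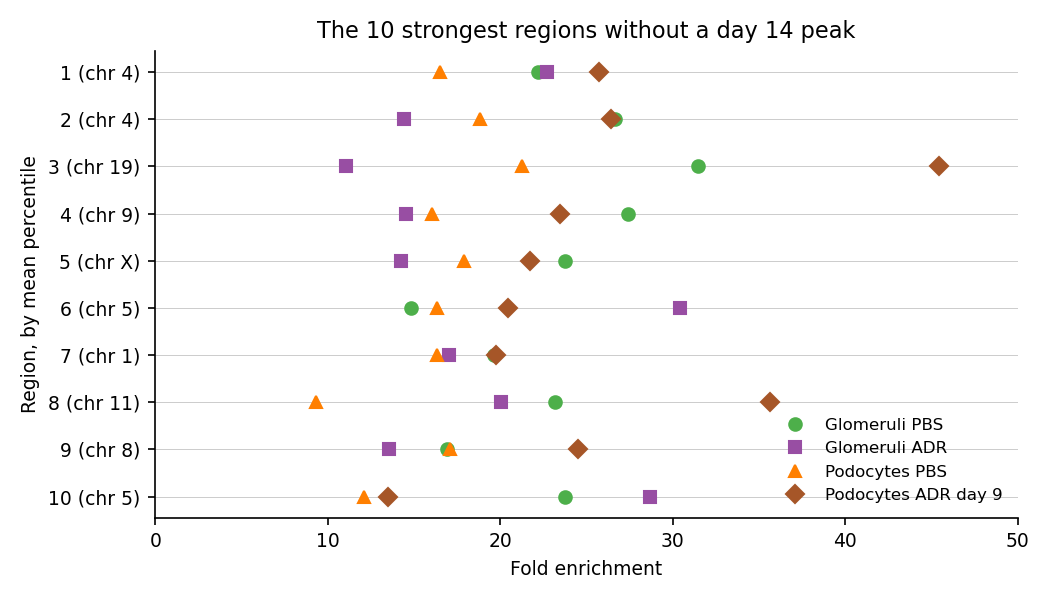
Fold enrichment of the 10 regions without a day 14 peak that had the highest mean percentile over the 4 other lists, numbered in that order with their chromosome; each point is the value of 1 list. The day 9 value of region 3 (45.5-fold) stands apart, and regions 6 and 10 are highest in ADR glomeruli.

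At the other end, the 3 weakest members by mean percentile stood at or below percentile 4.47 of each of the 4 lists. The region chr1:164670421-164670962 had 3.78-fold in glomeruli after PBS, 3.40 after ADR, 2.52 in podocytes after PBS and 2.81 at day 9, a mean percentile of 1.54. Next came chr2:66094508-66095105 with 2.91, 4.24, 2.35 and 2.76-fold, and chr1:133724271-133725075 with 3.13, 3.88, 2.93 and 2.81-fold. The last of these also had summits 471 bp apart, so that its peaks shared a merged region more than a position.

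In most members the 4 peaks marked nearly the same position. The summits of all 4 lists lay within 100 bp of each other in 3880 regions (67.6%, 66.4 to 68.8), against 84.6% (83.5 to 85.6) of regions in all 5 lists. The median spread was 69 bp (67 to 71) and 40 bp (39 to 41). Within deciles of day 9 enrichment, the spread was lower in regions with a day 14 peak in 5 of 10 deciles, higher in 4 and equal in decile 8. The gap between the classes thus had no constant direction within deciles. Each list contributed 1 peak in 5163 regions, and 573 regions (9.99%) had more than 1 peak in some list. The regions with most peaks were chr15:81415053-81416906, with 10 peaks over 1854 bp and 17.8-fold in PBS glomeruli, and chr5:143578499-143581849, with 10 peaks over 3351 bp and 13.5-fold.

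Members had narrower peaks than regions in all 5 lists. The median day 9 peak was 504 bp wide (499 to 509) against 741 bp (734 to 748), and the median PBS podocyte peak 497 bp (492 to 501) against 695 bp (688 to 705). The difference stayed within deciles of day 9 enrichment: in decile 6 the medians at day 9 were 557 and 695 bp, and members had the narrower median in each of the 10. Decile 1 held only 3 regions with a day 14 peak, and decile 10 only 9 members. Widths within deciles of the day 9 p-value were not computed.

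The absence of a day 14 peak followed the strength of the day 9 peak. When the 10402 regions were ranked by day 9 enrichment and cut into deciles, 99.7% of decile 1 (1.95 to 4.09-fold) lacked a day 14 peak, 49.2% (46.2 to 52.2) of decile 6 (10.1 to 13.0-fold) and 0.865% (0.456 to 1.64) of decile 10 (35.4-fold and above). Decile 10 held 9 members and 1031 regions with a day 14 peak. In decile 1, 3 regions had one. Where present in decile 6, the day 14 peak had a median of 4.39-fold and a lowest value of 2.51-fold, against a smallest value of 1.70-fold in the whole day 14 list. Ranking by the caller's p-value gave 98.9% in decile 1, 53.2% in decile 6 and 0.385% in decile 10.

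Within deciles of day 9 strength, regions whose PBS podocyte peak was weaker lacked a day 14 peak more often. Each decile of day 9 enrichment was divided at its median PBS podocyte enrichment into weaker and stronger regions. In decile 6, 65.5% of the weaker and 32.9% of the stronger regions had no day 14 peak, with median PBS podocyte enrichments of 6.76 and 10.7-fold. The difference averaged 14.4 percentage points (13.2 to 15.5) over the 10 deciles and had the same sign in 10 of 10. With deciles and division taken from the caller's p-value it averaged 7.70 points (6.51 to 8.89), again with that sign in 10 of 10. In decile 10 by enrichment, the 9 members had a median of 6.93-fold in PBS podocytes, while the 1031 regions with a day 14 peak had 30.5-fold. Deciles do not match day 9 strength exactly. Regions with a day 14 peak had the higher median day 9 enrichment in 9 of 10 deciles, with 47.6 against 39.3-fold in decile 10. The part of this remainder in the differences was not tested.

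**Figure D3:**
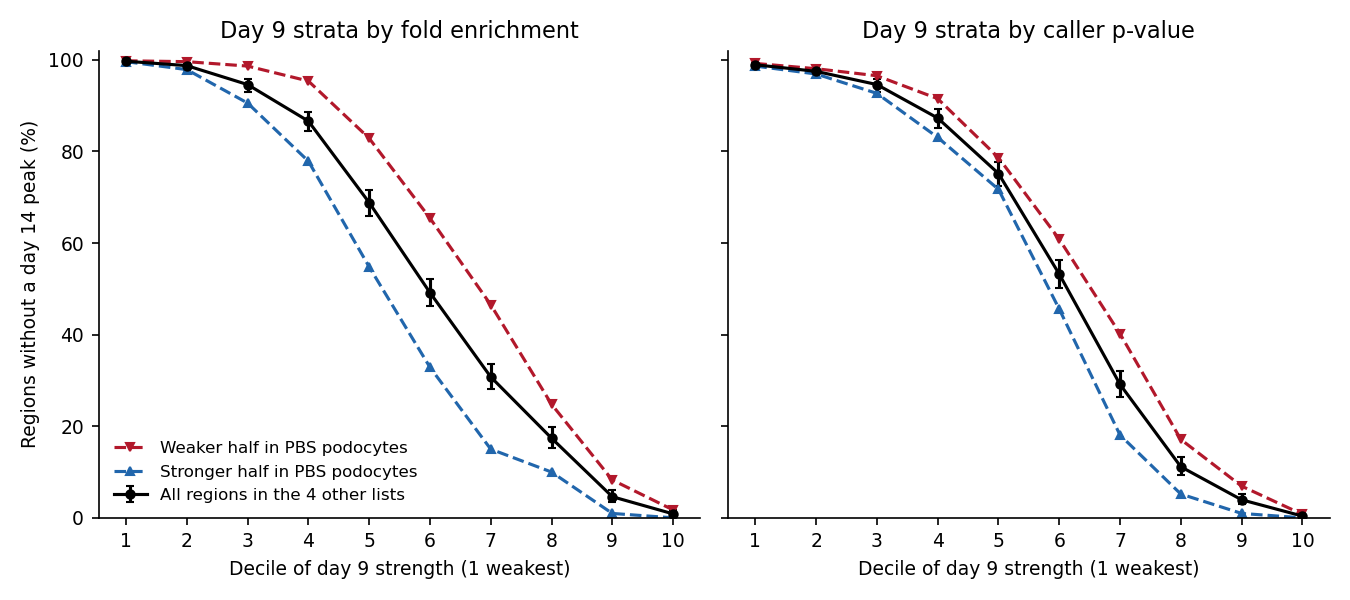
Share of regions without a day 14 peak in each decile of day 9 strength, ranked by fold enrichment (left) or caller p-value (right); black points are all 10402 regions with 95% Wilson intervals, and triangles are the regions with PBS podocyte peaks below and above the median of the decile. The share drops from 99.7% to 0.865% on the left and from 98.9% to 0.385% on the right, and the weaker regions lie above the stronger ones in each of the 10 deciles of both panels.

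Glomerular strength separated the regions less, and how much depended on the measure. Divided by PBS glomerular enrichment within day 9 deciles, the weaker regions lacked a day 14 peak 5.97 points (4.73 to 7.21) more often, and divided by ADR glomerular enrichment 10.5 points (9.29 to 11.7) more often. Ranked by the caller's p-value throughout, the differences were -0.568 points (-1.77 to 0.635) and 1.74 points (0.539 to 2.94). The sign for PBS glomeruli was thus not the same under both rankings, and its interval by p-value held both signs. The sign for PBS podocytes was the same.

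Regions without a peak in ADR glomeruli lacked a day 14 peak more often, by an amount that also turned on the measure. Among regions peaked after PBS in both preparations and at day 9, 79.4% (78.5 to 80.4) of the 6983 without an ADR glomerular peak lacked a day 14 peak, against the 55.1% (54.2 to 56.1) of the 10402 with one. In decile 7 of day 9 enrichment over these regions (10.8 to 13.7-fold) the shares were 81.8% (79.2 to 84.2) and 43.5% (40.4 to 46.7), and the mean difference over the deciles was 15.3 points (14.3 to 16.2). In deciles of the day 9 p-value it was 1.25 points (0.270 to 2.23), positive in 5 of 10. There the shares were 65.4% and 66.3% in decile 7, but 18.7% (15.3 to 22.7) and 11.2% (9.76 to 12.9) in decile 9. Within deciles of day 9 enrichment, day 9 peaks in regions with a day 14 peak had a larger −log10 p, with medians of 82.8 against 51.0 for members in decile 6. Fold enrichment and p-value therefore ordered the same day 9 peaks differently.

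**Figure D4:**
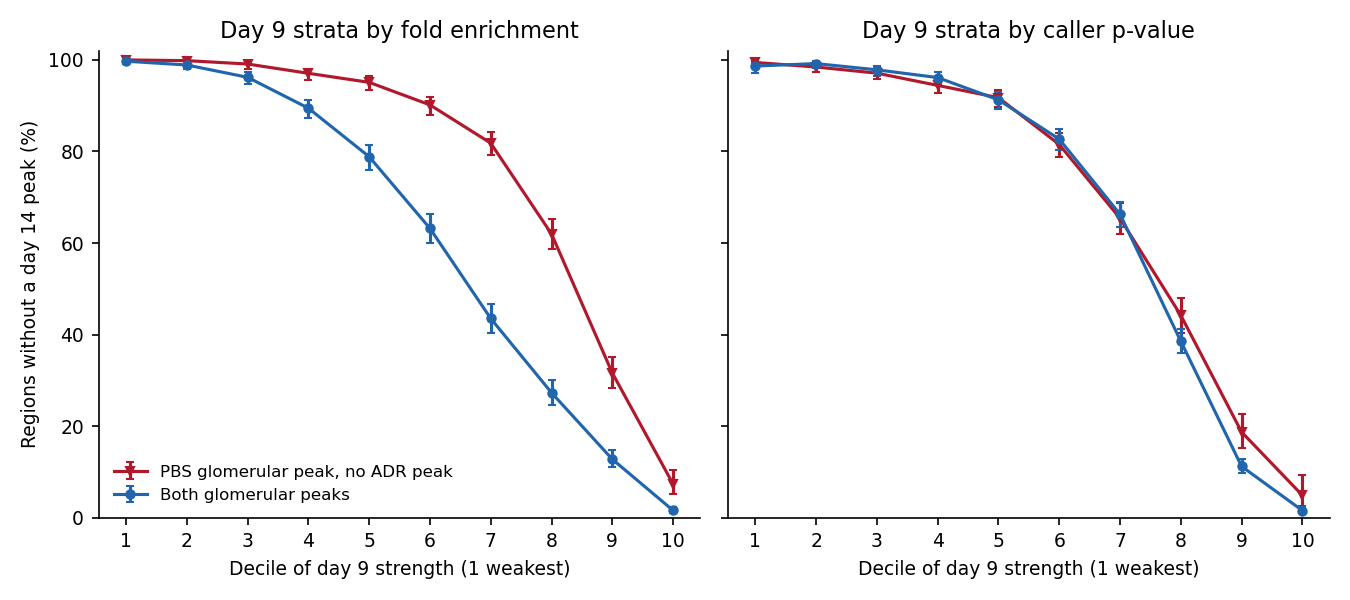
Share of regions without a day 14 peak by decile of day 9 strength, for regions with both glomerular peaks and for those with a PBS but no ADR glomerular peak, all with peaks in PBS and day 9 podocytes; bars are 95% Wilson intervals. By fold enrichment the curves lie apart in the middle and upper deciles (81.8% and 43.5% in decile 7). By caller p-value they lie close together up to decile 7 (65.4% and 66.3%). In deciles 8 to 10 by p-value, regions without an ADR glomerular peak lie higher (18.7% and 11.2% in decile 9).

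The size of the class moved with the length of the lists. All 5 lists were trimmed to the 6694 peaks of lowest p-value. Of the 2801 regions then in the 4 other lists, 260 (9.28%, 8.26 to 10.4) lacked a day 14 peak. Trimming left the day 14 list whole and took peaks only from the 4 other lists. That all 260 lay in regions of the main class, 4.53% of it, was thus nearly fixed by the setting. The 260 regions had medians of 15.5 and 11.9-fold in glomeruli after PBS and ADR, and 8.77 and 11.0-fold in podocytes after PBS and at day 9. Of the 10 strongest regions named above, 9 were among the 260, and chr5:103803100-103803603 was not. Those 10 were picked for high rank in the same 4 lists, so this count supports nothing further. The 260 regions lay on 20 chromosomes, with between 2 (chromosome 18) and 26 (chromosome 4) on each. With a −log10 q of at least 10 required in every list, 2498 regions met the rule, of which 1865 were in the main class.

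The edge of the rule was clear in position on the side of presence, while some members lay close to a day 14 peak. Such a peak lay within 1 kb of 214 members (3.73%), against 3.39% of the other regions without a day 14 peak. The 5 members nearest to a day 14 peak lay 63 to 143 bp from it, and in each case that neighbouring peak was part of a region present in all 5 lists. The nearest pair was chr11:75275681-75276356, with 5.63 and 7.05-fold in the glomerular and 2.54 and 3.41-fold in the podocyte lists, beside a day 14 peak of 7.90-fold. Next was chr2:17977781-17978338, with 8.14, 7.01, 4.11 and 4.68-fold, 99 bp from a day 14 peak of 8.10-fold. On the other side of the rule, the smallest overlap of a day 14 peak with another list's peak was 253 bp, at chr9:69282940-69283377, where the day 14 peak had 5.72-fold. No region in all 5 lists met the rule for presence through an overlap under 50 bp.

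Members lay among day 14 peaks about as closely as other regions that lack one. The median distance to the nearest day 14 peak was 54846 bp (51981 to 57461) for members and 50089 bp (48739 to 51398) for the 29439 other regions without a day 14 peak. A day 14 peak lay within 10 kb of 1079 members (18.8%, 17.8 to 19.8), against 20.8% of the other regions. Some members stood in long stretches with no day 14 peak at all. The farthest, chr16:65815080-65815537, was 4537639 bp from one and had 8.55 and 8.12-fold in glomeruli after PBS and ADR and 2.45 and 4.29-fold in podocytes after PBS and at day 9. On chromosome 7, chr7:47447660-47448127 was 4367496 bp away and ranked highest in PBS podocytes, with 10.7-fold at percentile 77.3, followed by ADR glomeruli with 8.65-fold at 64.2, day 9 with 8.06-fold at 59.7 and PBS glomeruli with 6.61-fold at 40.8.

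Several windows of 100 kb held many members. Most windows with a member held 1 (2845 of 4005), and 2343 of the 4005 had no day 14 peak. The same share over all windows with a merged region was not computed. The window chr2:167600001-167700000 held 9 members and no day 14 peak among 22 merged regions, and its members were strong for the class, with day 9 enrichments of 6.97 to 19.7-fold and a median of 11.5. The window chr10:80800001-80900000 also held 9, among 19 merged regions, with day 9 enrichments of 3.46 to 11.8-fold beside 3 regions in all 5 lists. Next came chr6:52100001-52200000, chr11:101000001-101100000 and chr9:63800001-63900000 with 8 members each, beside 2, 3 and 4 regions in all 5 lists. These held 23, 14 and 21 merged regions. Members were 13.7% of all merged regions, and these windows were picked for their member counts. Outside the first of these 5 windows, members thus stood beside regions that kept a day 14 peak.

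Members were spread over 20 chromosomes in unequal shares. Of the regions in the 4 other lists, 61.5% (58.3 to 64.7) lacked a day 14 peak on chromosome 11 and 60.8% (55.7 to 65.6) on chromosome 19, against 48.9% (43.4 to 54.4) on chromosome 18, 49.0% (44.0 to 53.9) on chromosome 13 and 49.6% (45.4 to 53.9) on chromosome 3. Across the 20 chromosomes the share went with the number of protein-coding genes per Mb, with Spearman's rho of 0.81 and Pearson's r of 0.77, and rho of 0.74 without the 2 chromosomes farthest from the median density. These are descriptions over chromosomes measured in the same lists. The median day 9 enrichment of the regions went the other way, with rho of -0.78, from 8.59-fold on chromosome 11 to 12.1-fold on the X chromosome.

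Relative to the share expected from day 9 enrichment in 20 equal bins, the relation with gene density was near 0, with rho of 0.026. Relative to the share expected from the day 9 p-value it was 0.63, and 0.59 over the 19 autosomes. The X chromosome was then lowest, at 7.75 points below its expected 58.5%, where the binomial standard error of the observed share was 3.64 points. By day 9 enrichment the X chromosome had been 3.20 points above its expected 47.6%. The chromosome pattern beyond day 9 strength therefore depended on how strength was measured.

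**Figure D5:**
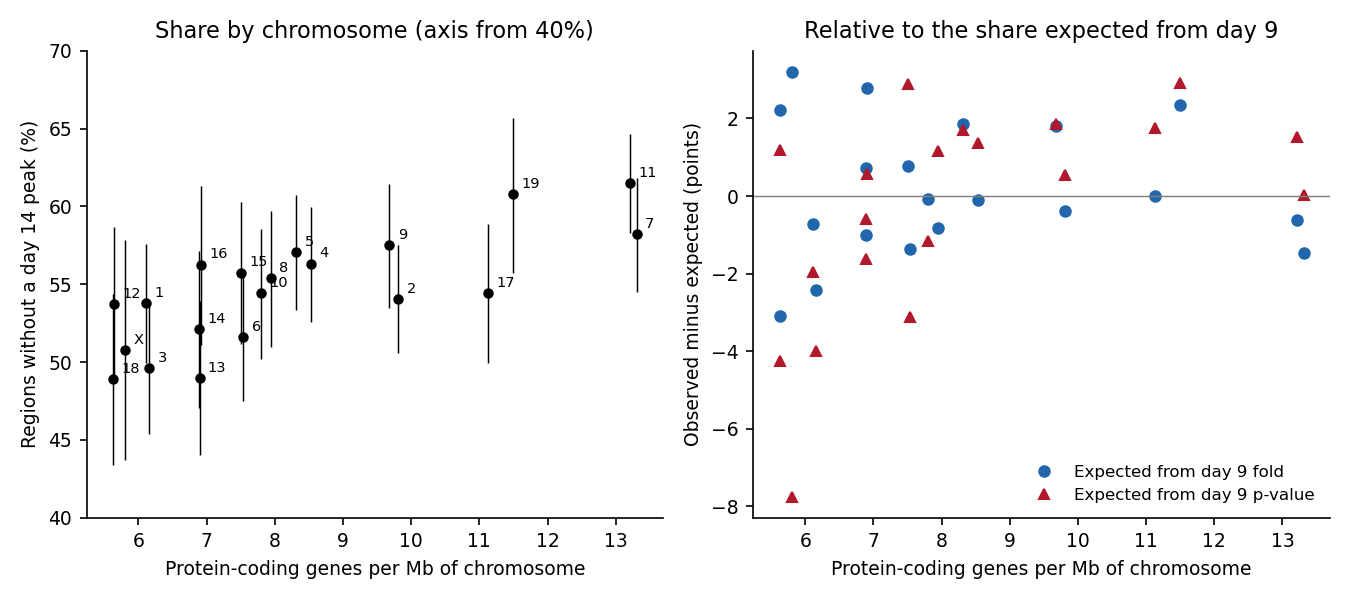
Share of regions without a day 14 peak per chromosome against protein-coding genes per Mb (left, 95% Wilson intervals, axis from 40%), and the same share minus that expected from day 9 fold enrichment or day 9 caller p-value (right, in percentage points). The share is 61.5% on chromosome 11 and 48.9% on chromosome 18, and on the right the X chromosome is at -7.75 points by p-value and 3.20 points by fold enrichment.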

How the data were processed

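WT1 ChIP-seq peaks of 5 groups were analysed, and the 2 input libraries have no list of their own. Per the submitters' processing notes, Bowtie 0.12.7, MACS2 and the build mm9 were used. How libraries were pooled, the control, duplicate handling and the cutoff: not given in the sources used here. Each peak's fold enrichment (a ratio) and its −log10 p and −log10 q are the authors' deposited values and were used to describe, rank or filter peaks within a list. The deposited integer score entered no result. The smallest −log10 q was 2.25 at day 14 and 1.31 to 1.52 in the other lists.

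Peaks were merged when they overlapped or touched, and a region's value in a list is that of its strongest peak. Coordinates are 1-based. Strata were deciles of regions by day 9 fold or p-value, divided further at the median of another list. Mean differences over strata carry 95% intervals from the binomial standard error. Gene density is the number of GRCm38 protein-coding genes divided by the last mm9 peak end of the chromosome. No test was run, because each group has 1 list. Named regions were the 10 with the highest mean percentile, the 5 lowest, the 5 nearest to and farthest from a day 14 peak, the 5 with most peaks and the 5 windows with most members, of which the text gives the leading ones. Gene assignment, promoter share and motif share, set for a reference of the files' build, were not run. The members and lists were chosen with earlier results of these data known, and the p-value strata were added after the data were seen. The merging code was tested on simulated lists of well separated sites. Close neighbours and regions with several peaks of a list were not part of that test. Tables were handled in pandas 2.3.3 and numpy 2.4.6 under Python 3.11.15, intervals came from scipy 1.17.1, and plots from matplotlib 3.10.9.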

Additional observations from a re-analysis of the deposited data

How the results depend on the processing

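No paired analysis was possible because the libraries of a group share 1 list of peaks. Leaving out a replicate was likewise not possible. Cutting all lists at the smallest −log10 q of the day 14 list (5619 members, 54.8% absent) or joining summits within 200 bp (5388 members, 54.5%) left all 11 results within their interval or within 1.5 times the count. At a −log10 q of at least 10, 2498 regions met the rule (47.9%), with medians in PBS glomeruli, ADR glomeruli, PBS podocytes and day 9 of 11.7, 10.7, 6.94 and 8.25-fold, percentiles of 75.7, 76.1, 56.6 and 60.8, and a day 14 peak within 10 kb of 15.2%. With lists trimmed to equal length the count was 260 (9.28%), the medians 15.5, 11.9, 8.77 and 11.0-fold, the percentiles 86.8, 81.1, 68.8 and 73.0, and the share within 10 kb 23.8%. Percentiles in both refer to the full lists. These 2 settings keep stronger peaks by construction. Requiring no day 14 peak within 1 kb gave 53.1% absent and 15.7% within 10 kb. The share near a day 14 peak was 11.7% at 5 kb and 47.9% at 50 kb. With p-value strata, chosen after the data were seen, the difference between weaker and stronger regions was 7.70 points for PBS podocytes and 1.74 for ADR glomeruli. For PBS glomeruli it was -0.568 points, with an interval of both signs (-1.77 to 0.635), against 5.97 by fold enrichment. The ADR glomerular peak difference was 1.25 points. The cause was not tested. Not run, for want of a reference of the files' build, were promoter and motif shares with their 3 alternatives.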

Other observations

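Neighbouring regions did not share their day 14 state more than their day 9 fold enrichment gave. An expectation from the day 9 p-value was not computed for pairs or for crowding. Among adjacent pairs of the regions present in the 4 other lists, 797 lay under 2 kb apart, of which 261 both lacked a day 14 peak, 176 both had one and 360 were mixed. The share in the same state was 54.8% (51.4 to 58.3), against 57.9% expected from the day 9 enrichment of each member of the pair. At 10 to 50 kb it was 55.0% (53.2 to 56.8) against 56.7%, and at 200 kb or more 52.4% (50.4 to 54.4) against 52.3%.

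Solitary regions lacked a day 14 peak somewhat more often than crowded ones. The share was 58.4% (56.8 to 60.1) of the 3347 with no other such region within 50 kb, 51.2% (48.2 to 54.1) of those with 3 and 53.4% (51.0 to 55.9) of those with 4 or more. Solitary regions were also weaker at day 9, with a median of 8.64-fold against 11.9 and 11.6-fold. The shares expected from that enrichment were 60.7%, 49.7% and 50.7%, so that the observed order was narrower than the expected one.

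Long stretches between 2 neighbouring day 14 peaks held up to 12 members. Such a stretch has no day 14 peak. Any region in it with peaks in all the other lists is thus a member by the rule. The stretches were picked for their member counts, and their merged regions were not counted. The values below are therefore a description without a background share, and whether members are crowded there was not tested. The stretch chr11:115262552-115766351 (0.504 Mb) held 12, with day 9 enrichments of 3.06 to 10.6-fold, and chr17:47027004-48176387 (1.15 Mb) held 12 as well, with 2.61 to 14.6-fold. Of the 10 stretches with most members, the densest was chr11:100921973-101034730, with 9 members in 0.113 Mb.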
